A study of Mus musculus with 7 samples.

Results

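Phase II enzymes attach a small polar group to drugs, dietary compounds, steroids and bile pigments so that these can be excreted. The genes described here carry symbols that begin with Gst, Ugt or Sult followed by a class letter or number, taken from probe sets that the annotation assigns to a single symbol, with the brightest probe set per gene. The rule found 46 of the 19938 genes measured, of which 20 were glutathione S-transferases (Gst), 10 UDP-glucuronosyltransferases (Ugt) and 16 sulfotransferases (Sult). The rule goes by symbol, and intensities served only to pick the probe set of a gene.

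RNA from mouse intestine was measured on 7 one-colour Affymetrix arrays, 4 from mice lacking Atg4b (KO) and 3 from wild-type mice (WT). All mice were 3 months old on a C57Bl6/129Sv background. The DSS groups are colon of mice given dextran sulfate sodium, which injures the colonic epithelium, for 7 days and then water for 3 days, with 2 KO arrays and 1 WT array. The untreated groups are ileum and colon, with 1 KO and 1 WT array each. The series asks how loss of Atg4b, a protease that processes the LC3 and GABARAP proteins of autophagosomes, bears on the intestinal transcriptome in this colitis. Whether the arrays come from separate animals is not in the labels, and p-values therefore describe only how these arrays spread.

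Glutathione S-transferases join glutathione to reactive electrophiles. UDP-glucuronosyltransferases transfer glucuronic acid from UDP-glucuronic acid, and sulfotransferases transfer sulfate from the donor PAPS. In the gut the epithelium meets food and bacterial products first, and many of these enzymes are made there as well as in the liver.

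The median intensity over all probe sets lay between 121.4 and 126.45 on the 7 arrays, and the number of arrays limits the precision. Atg4b had a log2 intensity of 5.39 to 5.45 on the KO arrays and 7.35 to 7.72 on the WT arrays. Xist lay at 12.16 to 12.55 on the DSS arrays and 5.19 to 5.52 on the untreated arrays, and the Y-linked Eif2s3y at 4.28 to 4.39 on the DSS arrays and 9.39 to 9.77 on the untreated arrays. On the 3 WT arrays these markers oppose the labelled sex, and DSS and the sex they show cannot be told apart in any result on DSS. Means of 10 epithelial markers lay between 12.06 and 12.38 on every array. Markers of the small intestinal enterocyte averaged 11.79 in KO and 11.47 in WT ileum, against 6.54 to 7.08 on the 5 colon arrays, so the labelled tissues differed in their defining markers.

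Of the 46 genes, 29 exceeded the lower quartile of all genes on at least 1 array, and 17 lay below it on all 7. The quartile was at a log2 intensity of 5.71 to 5.87. The genes above it were 18 of 20 Gst, 4 of 10 Ugt and 7 of 16 Sult. The 17 dim genes were Gsto2, Gstt4, Sult1c1, Sult1e1, all 3 Sult2a genes, both Sult3a and both Sult6b genes, Ugt2a3, Ugt2b1, Ugt2b37, Ugt2b38 and both Ugt3a genes, with log2 values between 3.83 and 5.75. Differences of dim genes may be understated, and they are given by count and range.

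Promoter windows of 5 genes are printed because their letters can be set beside the values that follow. They come from RefSeq on GRCm38.p6, cover 300 bases around an annotated start and are written 5′ to 3′ on the gene's strand. Of the 46 genes 42 had such a window, 54 windows in all. Gstm7 and Gstm1 have 2 windows each, of which the one with more matches is shown, or the first listed where they tie. Capitals mark matches on either strand to 3 sets of letters: TGACNNNGC, the core of the antioxidant response element bound by Nrf2; GCGTG, the core of the xenobiotic response element bound by the Ahr and Arnt pair; and GTTAAT, one arm of the HNF1 site. Gstm7 and Gstm5 are mu-class neighbours of which Gstm7 passed the test in DSS colon and Gstm5 did not, Gstm1 is another member of their cluster, and Sult1a1 and Sult1d1 are sulfotransferases that fell in DSS colon.
Gstm7, chr3:107931565-107931864, minus strand: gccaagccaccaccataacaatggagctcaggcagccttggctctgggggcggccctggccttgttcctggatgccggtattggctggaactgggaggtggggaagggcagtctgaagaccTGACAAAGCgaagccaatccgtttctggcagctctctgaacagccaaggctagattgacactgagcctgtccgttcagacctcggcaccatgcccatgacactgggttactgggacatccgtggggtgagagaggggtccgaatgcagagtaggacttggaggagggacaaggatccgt
Gstm5, chr3:107895604-107895903, plus strand: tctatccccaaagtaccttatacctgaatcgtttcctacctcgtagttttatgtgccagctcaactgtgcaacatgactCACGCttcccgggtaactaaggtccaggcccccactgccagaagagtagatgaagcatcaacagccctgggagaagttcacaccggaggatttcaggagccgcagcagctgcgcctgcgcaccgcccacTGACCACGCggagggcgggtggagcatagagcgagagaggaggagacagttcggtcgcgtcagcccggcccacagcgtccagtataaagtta
Gstm1, chr3:108017924-108018223, minus strand: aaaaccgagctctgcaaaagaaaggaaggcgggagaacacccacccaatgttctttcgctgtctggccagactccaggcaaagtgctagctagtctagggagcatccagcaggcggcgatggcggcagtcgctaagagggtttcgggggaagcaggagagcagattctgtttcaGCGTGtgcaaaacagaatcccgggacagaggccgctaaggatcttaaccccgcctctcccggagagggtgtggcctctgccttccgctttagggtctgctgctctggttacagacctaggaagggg
Sult1a1, chr7:126676369-126676668, minus strand: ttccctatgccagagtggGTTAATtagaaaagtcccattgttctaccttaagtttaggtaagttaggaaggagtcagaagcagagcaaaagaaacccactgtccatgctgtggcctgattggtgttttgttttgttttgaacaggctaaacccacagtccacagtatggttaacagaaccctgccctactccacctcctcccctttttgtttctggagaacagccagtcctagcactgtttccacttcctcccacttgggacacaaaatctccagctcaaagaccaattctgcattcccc
Sult1d1, chr5:87568957-87569256, minus strand: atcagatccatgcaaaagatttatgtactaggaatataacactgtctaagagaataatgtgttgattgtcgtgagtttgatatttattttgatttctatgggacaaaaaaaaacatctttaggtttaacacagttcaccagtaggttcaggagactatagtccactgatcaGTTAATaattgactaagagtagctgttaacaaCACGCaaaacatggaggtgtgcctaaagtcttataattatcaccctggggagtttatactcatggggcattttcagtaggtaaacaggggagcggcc

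The antioxidant core stood 129 bases before the annotated start of the window shown for Gstm7 and 42 bases before that of Gstm5, counted to the first base of the match. Gstm7 and Gstm1 have 2 windows each, so the start used need not be the gene's main one, and distances are not compared between genes. In Gstm5 the letters GCGTG occurred on the opposite strand at 171 and 38 bases before the start, and the nearer of these overlaps the antioxidant match. The Gstm1 match lay 76 bases before the start. In Sult1a1 the HNF1 letters began 232 bases before the start. In Sult1d1 they began 79 bases before it and the GCGTG match, on the opposite strand, 47 bases before it.

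Among all 32851 promoter windows, 12.4% held TGACNNNGC, 32.4% held GCGTG and 7.1% held GTTAAT. Among the 54 windows of these enzymes the shares were 5.56%, 18.5% and 14.8%. The antioxidant letters were found for Gsta3, Gstm5 and Gstm7 alone among the 42 genes. Of the 13 genes that fell in DSS colon, Gstm7 held the antioxidant core, Gstm1, Sult1b1 and Sult1d1 the xenobiotic core, and Sult1a1 and Sult1d1 the HNF1 letters. A match describes letters in a window and is not evidence of binding.

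In DSS colon 13 of the 46 genes fell and 0 rose relative to control colon in limma at an adjusted p under 0.05, which is 28.3%. Over all genes 3.43% were lower and 7.2% higher. The 13 were 6 of the 7 mu-class transferases, Gstt1, 4 of the 6 Sult1 genes and 2 of the 8 Ugt2 genes. The median log2 difference was -0.14 over the 46 genes, against -0.01 over all genes tested, and 19 of the 46 had an unadjusted p under 0.05. The share of all genes at that unadjusted level was not counted, here or in the genotype comparisons below. The calls rest on few arrays: 2 remained without the WT control colon (Gstm7 and Sult1a1), 3 without the KO control colon (these and Gstt1) and 6 without the DSS WT array (Gstm4, Gstm6, Gstm7, Sult1a1, Sult1d1 and Ugt2b35). In those fits 1.08%, 0.918% and 2.64% of all genes were called.

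The mu class, cytosolic transferases that act on a broad range of electrophiles, changed most as a family. Gstm7 had log2 intensities of 7.72 and 7.43 in DSS KO and 7.35 in DSS WT colon, against 9.34 in control KO and 9.27 in control WT colon. The 3 DSS values lay well below both controls. The difference was -1.84 ± 0.13 (SE, 3 DSS against 2 control arrays), a 3.57-fold lower level, with an adjusted p of 0.00128. Without the WT or KO control colon Gstm7 still passed.

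Gstm1, a major mu-class enzyme of mouse tissues, had 10.61 and 9.96 in DSS KO and 9.39 in DSS WT colon, against 11.48 in control KO and 11.46 in control WT colon. Gstm3 had 9.68 and 9.08 in DSS KO and 8.63 in DSS WT colon, against 10.75 in control KO and 10.49 in control WT colon. For both genes every DSS value lay below both controls, and the DSS arrays spread by more than 1 log2 unit, with KO replicate 1 highest and WT lowest. The differences were -1.55 ± 0.27 for Gstm1 (adjusted p = 0.0206) and -1.55 ± 0.24 for Gstm3 (adjusted p = 0.0148).

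Gstm6 had the widest range of the mu class over the 7 arrays, 2.70 log2 units. It had 6.19 and 6.57 in DSS KO and 6.33 in DSS WT colon, against 8.23 in control KO and 7.99 in control WT colon, a difference of -1.81 ± 0.24 (adjusted p = 0.00848). Its DSS values did not overlap the controls. Gstm4 (-0.93 ± 0.11, adjusted p = 0.00646) and Gstm2 (-0.83 ± 0.11, adjusted p = 0.01) fell less.

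Gstm5 did not pass. It had 9.06 and 9.05 in DSS KO and 8.82 in DSS WT colon, against 8.98 in control KO and 9.31 in control WT colon, and the groups overlapped (-0.17 ± 0.14, adjusted p = 0.544). In the order of the RefSeq annotation Gstm5 is the outermost gene of the mu cluster on chromosome 3, followed by Gstm7, Gstm6, Gstm3, Gstm2, Gstm1 and Gstm4. The DSS differences along that order were -0.17, -1.84, -1.81, -1.55, -0.83, -1.55 and -0.93. The mu-class genes are close paralogs, and how far their probe sets share hybridisation was not tested.

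**Figure D1:**
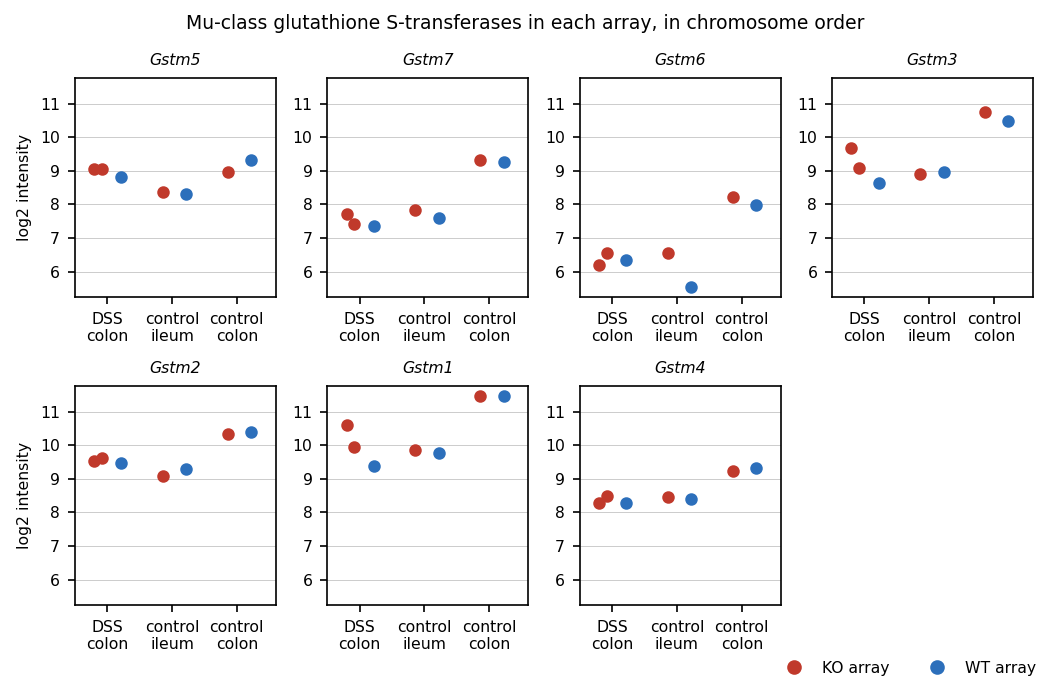
Log2 intensity of the 7 mu-class genes on each array, in chromosome order, with KO arrays in red and WT arrays in blue and 1 point per array. The DSS points of Gstm7, Gstm6, Gstm3, Gstm2, Gstm1 and Gstm4 all lie below both control colon points, whereas those of Gstm5 (8.82 to 9.06) overlap them.

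Of the other 13 glutathione transferases Gstt1, a theta-class enzyme, passed and 12 did not. It had 8.34 and 8.30 in DSS KO and 7.94 in DSS WT colon, against 9.46 in control KO and 9.53 in control WT colon. All DSS values were lower, by 1.37 ± 0.19 log2 units in the fit (adjusted p = 0.0112), or 2.58-fold. Gstt3, next to it on chromosome 10, and Gstt2, beyond the dim Gstt4, did not pass, with differences of -0.27 ± 0.11 and -0.16 ± 0.12. Gstt4 did not pass either.

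The alpha and pi classes held the largest positive differences, and none passed with the values as deposited. Gsta4, which conjugates the lipid peroxidation product 4-hydroxynonenal, had 9.39 and 9.15 in DSS KO and 9.35 in DSS WT colon, against 8.82 in control KO and 8.88 in control WT colon. The groups did not overlap, and the difference of 0.46 ± 0.11 lay just outside the threshold (adjusted p = 0.0506). It passed as higher with an offset of 50 and with probe sets averaged. Gsta4 has 1 probe set, so averaging left its own values unchanged and altered only those of other genes. Gstp1, a pi-class enzyme common in epithelia, differed by 0.31 ± 0.13 (adjusted p = 0.183).

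Gstp3 varied most among the DSS arrays. It had 7.21 and 8.67 in DSS KO and 8.93 in DSS WT colon, against 7.53 in control KO and 7.26 in control WT colon. DSS KO replicate 1 lay below both controls and the other 2 DSS arrays above them, so the groups overlapped (0.95 ± 0.46, adjusted p = 0.258). Without that replicate Gstp3 passed as higher in DSS colon.

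Gsta3 had 7.06 and 7.71 in DSS KO and 7.06 in DSS WT colon, against at least 7.90 in both control colons. These groups did not overlap, and the difference of -0.68 ± 0.24 did not pass (adjusted p = 0.134). Gstz1, which isomerises maleylacetoacetate in tyrosine breakdown and had a wider range over the 7 arrays (1.48) than Gstk1 or Gstcd, differed by -0.43 ± 0.21 (adjusted p = 0.266). Gstk1, the kappa-class enzyme, differed by -0.0034 ± 0.165.

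Among sulfotransferases Sult1a1, a phenol sulfotransferase, had the largest DSS difference of the 46 genes. It had 9.03 and 8.81 in DSS KO and 8.30 in DSS WT colon, against 10.53 in control KO and 10.56 in control WT colon. All DSS values lay more than 1 log2 unit below both controls, and the difference was -1.89 ± 0.17 (adjusted p = 0.00308), a 3.71-fold lower level.

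Sult1d1, known in mice to sulfonate catecholamines, had 10.76 and 10.56 in DSS KO and 10.30 in DSS WT colon, against 11.76 in control KO and 11.75 in control WT colon. The control pair agreed closely and every DSS value was lower, by 1.24 ± 0.13 in the fit (adjusted p = 0.00436). Sult1b1, which acts on thyroid hormones and phenols and lies next to Sult1d1 on chromosome 5, fell by 0.60 ± 0.12 (adjusted p = 0.0285), with values of 10.31 to 10.55 in DSS colon and 10.95 to 11.12 in control colon.

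Sult1c2 had 8.73 and 7.28 in DSS KO and 7.64 in DSS WT colon, against 9.58 in control KO and 9.93 in control WT colon. Every DSS value was lower, but the KO replicates differed by 1.45, and the difference of -1.85 ± 0.42 lay near the threshold (adjusted p = 0.0427). It kept its call in 6 of the 15 alternatives run and Sult1b1 in 8. Colon arrays alone and leaving out either ileum array are the same fit for DSS colon, so the 15 are not all separate. Sult2b1, which sulfonates cholesterol and pregnenolone, differed by -0.43 ± 0.15 (adjusted p = 0.119).

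Of the glucuronosyltransferases, Ugt2b35 and Ugt2b34 fell. Ugt2b35 had 6.29 and 6.48 in DSS KO and 5.55 in DSS WT colon, against 7.91 in control KO and 7.55 in control WT colon. All DSS values lay below the controls, the WT one below the lower quartile, and the difference was -1.71 ± 0.17 (adjusted p = 0.00359). Ugt2b34 had 11.32 and 11.00 in DSS KO and 11.00 in DSS WT colon, against 11.90 in control KO and 11.82 in control WT colon. It fell by 0.77 ± 0.12 (adjusted p = 0.0165), without overlap.

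**Figure D2:**
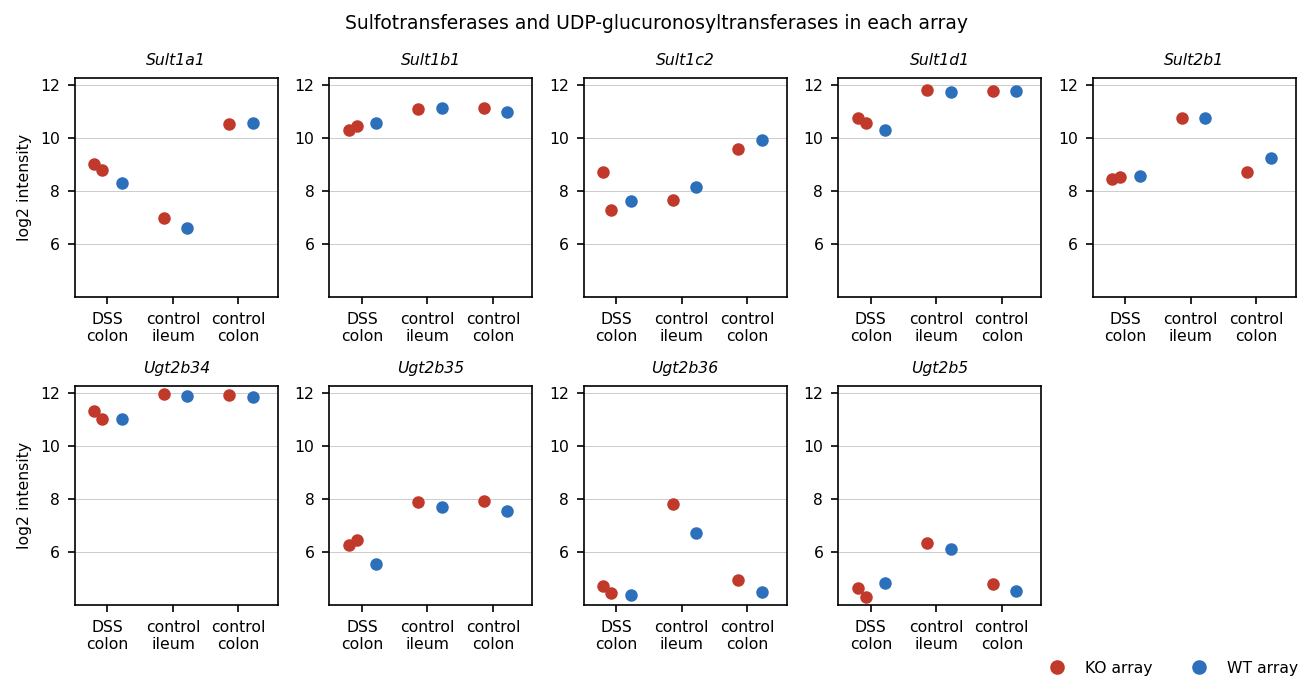
Log2 intensity of 5 sulfotransferases and 4 glucuronosyltransferases on each array, with KO arrays in red and WT arrays in blue and 1 point per array. Sult1a1, Sult1b1, Sult1c2, Sult1d1, Ugt2b34 and Ugt2b35 lie lower in DSS than in control colon on every array, and Sult2b1, Ugt2b36 and Ugt2b5 lie highest in control ileum.

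Markers of other cells moved in the same comparison. Means of 12 smooth muscle markers were 10.59 and 9.69 in DSS KO and 9.15 in DSS WT colon, against 11.12 in control KO and 11.16 in control WT colon, and 4 of the 12 fell. Their summed linear intensity ran from 8682.7 to 26273.5 in DSS colon and from 38967.4 to 39901.7 in control colon. The DSS arrays stood in the same order for Gstm1, Gstm3, Gstm7, Gstt1, Sult1a1 and Sult1d1. They stood in another order for the other genes that fell, Gstm2, Gstm4, Gstm6, Sult1b1, Sult1c2, Ugt2b34 and Ugt2b35.

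Leukocyte markers averaged 8.72 to 9.01 in DSS colon and 7.62 to 7.89 in control colon, and 6 of 10 rose. Their summed linear intensity ran from 5294 to 6363.9 in DSS colon and from 3004.4 to 3861 in control colon. Colonocyte markers averaged 11.78 to 12.05 in DSS colon and 12.15 to 12.34 in control colon, and 2 of 7 fell, with sums of 31972.1 to 38433.6 in DSS colon and 44347.6 to 47526.6 in control colon. Of 10 epithelial markers 1 rose and 0 fell, with sums of 57101 to 59203.1 in DSS colon and 54235.6 to 55937.2 in control colon.

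Of 5 liver markers 3 fell, Ttr, Cps1 and Alb, and the other 2, Apoh and Fga, lay below the lower quartile on every array. Summed linear intensities were 353.6 to 463.1 in DSS colon and 1744.3 to 1854.4 in control colon. Ttr was by far the brightest in control colon, with 10.54 in KO and 10.36 in WT. Alb lay below the lower quartile on the 3 DSS arrays. Cps1 was brightest in ileum, with 11.71 in KO and 11.88 in WT, so these markers do not stand for liver alone. Adipocyte markers averaged 6.43 to 7.43 in DSS colon and 6.57 to 8.13 in control colon, and 0 of 6 passed.

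With each array centred on its epithelial markers, an alternative chosen after seeing the data, 16 of the 46 genes fell in DSS colon, the 13 above among them. The epithelial means were higher in DSS colon, so centring lowered every difference by the same amount (Gstm1 from -1.55 to -1.73). Genes already lower could only move further down, and this setting cannot show what part the epithelium had. That fit called 11.6% of all genes in either direction, against 10.6% with the values as deposited, and its median difference over all genes was -0.19. The part of these cell markers in the results was not tested. Fewer cells of a type and less RNA per cell cannot be told apart in these tissue pieces.

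**Figure D3:**
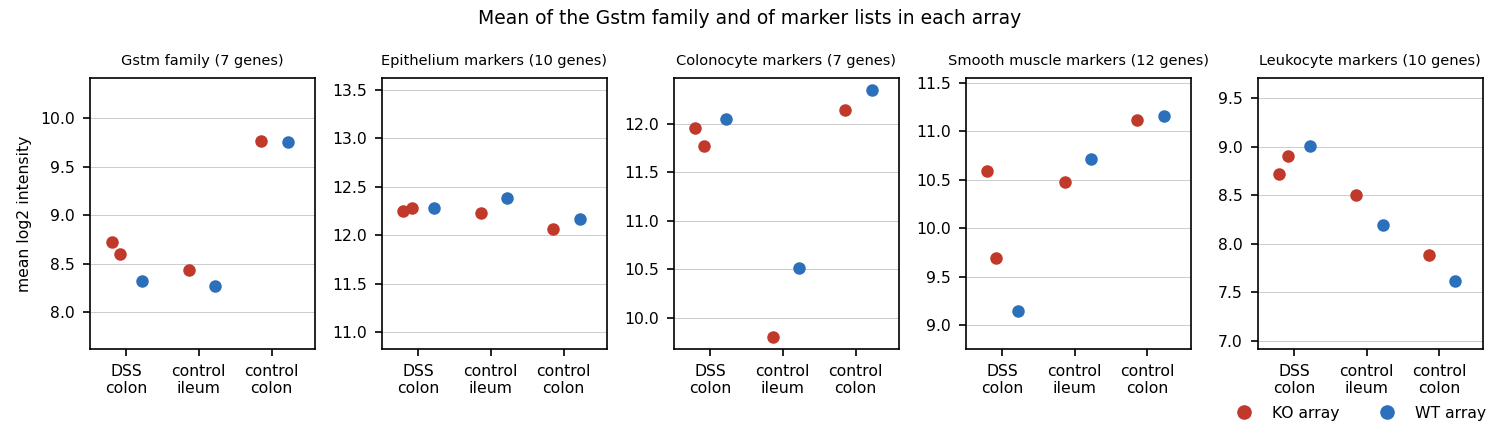
Mean log2 intensity of the mu class and of 4 marker lists on each array, with KO arrays in red and WT arrays in blue; every axis spans the same number of log2 units but starts at its own value. The mu class averaged 8.33 to 8.73 in DSS colon and 9.75 to 9.77 in control colon, while epithelial markers stayed between 12.06 and 12.38 on every array.

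In control ileum the mu class was lower than in control colon, as was Sult1a1, while 2 Ugt2 genes and 1 Sult2 gene were higher. Of the 46 genes 3 were higher in ileum (6.52%) and 9 lower (19.6%) in limma, while over all genes 5.94% were higher and 3.22% lower. The share higher was thus near that of all genes. The 9 were all 7 mu-class genes, Gstk1 and Sult1a1, and the 3 were Sult2b1, Ugt2b36 and Ugt2b5. The median difference was -0.07 over the 46 genes and -0.02 over all genes. The DSS and tissue comparisons share the control colon arrays, so their values are given side by side and not correlated. Without the WT control colon 5 calls remained, without the KO ileum 6 and without the KO control colon 7, with Gstm2, Gstm7, Sult1a1 and Sult2b1 among them each time, in fits that called 4.07%, 3.56% and 3.31% of all genes.

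Sult1a1 had 6.97 in KO and 6.63 in WT ileum, against 10.53 in KO and 10.56 in WT control colon. The ileal values lay more than 3 log2 units lower, and the difference of -3.75 ± 0.18 (SE, 2 ileum against 2 colon arrays, adjusted p = 0.000113) is a 13.4-fold lower level, the largest of the 46 genes in this comparison. Its DSS values, 8.30 to 9.03, lay between those of the ileum and of the control colon.

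Gstm6 had 6.55 in KO and 5.53 in WT ileum, against 8.23 in KO and 7.99 in WT control colon (-2.07 ± 0.26, adjusted p = 0.00457). Its WT ileum value lay below the lower quartile, and the ileal pair differed by 1.02. With an offset of 50 the difference was -1.47 and still passed. Gstm3 (-1.69 ± 0.26), Gstm1 (-1.64 ± 0.29) and Gstm7 (-1.60 ± 0.14) followed, then Gstm2 (-1.18 ± 0.12), Gstm4 (-0.85 ± 0.12) and Gstm5 (-0.79 ± 0.16), with adjusted p between 0.00114 and 0.0272.

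Gstm5 thus passed in this comparison, with 8.38 in KO and 8.32 in WT ileum, against 8.98 in KO and 9.31 in WT control colon. Gstk1 had 10.45 in KO and 10.03 in WT ileum, against 11.02 in KO and 11.19 in WT control colon (-0.86 ± 0.18, adjusted p = 0.0321). Neither gene's groups overlapped.

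On the higher side, Ugt2b36 had 7.82 in KO and 6.71 in WT ileum, against 4.95 in KO and 4.53 in WT control colon. The difference of 2.52 ± 0.23 (adjusted p = 0.00143) is 5.74-fold, and it had the widest range of the Ugt2 genes over the 7 arrays, 3.40. Its neighbour Ugt2b5 had 6.34 in KO and 6.14 in WT ileum, against 4.82 in KO and 4.55 in WT control colon (1.56 ± 0.20, adjusted p = 0.00567). Both genes lay below the lower quartile on all 5 colon arrays, so the size of these differences is uncertain. With an offset of 50 added before the log2 they were 1.424 for Ugt2b36 and 0.731 for Ugt2b5, and both still passed.

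Sult2b1 had 10.75 in KO and 10.74 in WT ileum, against 8.70 in KO and 9.25 in WT control colon (1.77 ± 0.16, adjusted p = 0.00132). The ileal pair agreed closely and the colon pair differed by 0.55. Sult1c2 did not pass, with 7.67 in KO and 8.16 in WT ileum, against 9.58 in KO and 9.93 in WT control colon (-1.84 ± 0.46, adjusted p = 0.0607).

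Several genes that fell in DSS colon did not pass between ileum and control colon. Sult1d1 had 11.80 in KO and 11.72 in WT ileum, against 11.76 in KO and 11.75 in WT control colon (0.01 ± 0.14). The differences were 0.07 ± 0.13 for Sult1b1, 0.06 ± 0.14 for Ugt2b34, 0.07 ± 0.18 for Ugt2b35 and -0.22 ± 0.21 for Gstt1, each with overlapping groups. Gsta4 differed by 0.45 ± 0.12 (adjusted p = 0.0753) and Gstz1 by 0.59 ± 0.23 (adjusted p = 0.205), without passing.

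Other cell markers also differed between the tissues. Smooth muscle markers averaged 10.48 in KO and 10.72 in WT ileum, against 11.12 in KO and 11.16 in WT control colon, and 0 of 12 passed. Colonocyte markers averaged 9.81 in KO and 10.52 in WT ileum, against 12.15 in KO and 12.34 in WT control colon, and 4 of 7 were lower. Leukocyte markers averaged 8.51 in KO and 8.20 in WT ileum, against 7.89 in KO and 7.62 in WT control colon, with 3 of 10 higher. Adipocyte markers averaged 9.16 in KO and 9.32 in WT ileum, against 6.57 in KO and 8.13 in WT control colon, with 3 of 6 higher and a median difference of 1.80. Their part in the tissue differences was not tested.

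**Figure D4:**
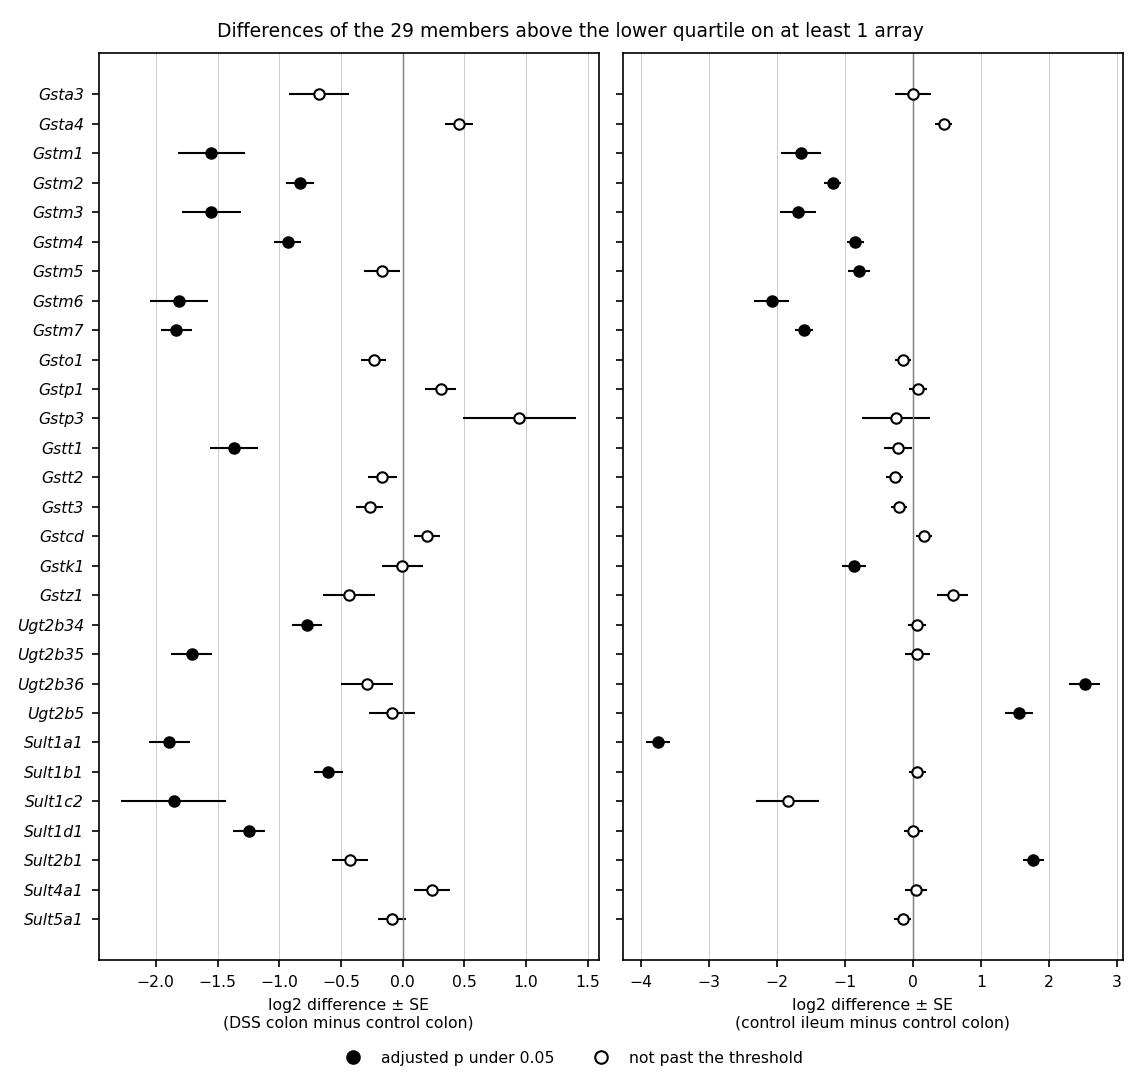
Log2 differences with their SE for the 29 genes above the lower quartile on at least 1 array, DSS colon minus control colon on the left and control ileum minus control colon on the right, on axes of different length; filled points have an adjusted p under 0.05. The mu class lies left of 0 in both panels, Sult1d1, Ugt2b35 and Gstt1 are filled in the left one and open in the right one, and Ugt2b36, Sult2b1 and Ugt2b5 lie to the right in the ileum panel.

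Genes that supply or use the same cofactors were described from lists chosen for their roles, 57 of 62 of them measured. In DSS colon 7 of the 57 rose and 9 fell, beside 7.2% and 3.43% of all genes. Of 11 glutathione genes 2 rose and 1 fell: the cystine carrier Slc7a11 rose by 2.53 ± 0.20 (adjusted p = 0.00205) and the epithelial glutathione peroxidase Gpx2 by 0.89 ± 0.13. The prostaglandin D synthase Hpgds, a sigma-class glutathione transferase by structure, fell by 1.28 ± 0.14 (adjusted p = 0.00525). Gclc, the catalytic subunit of the enzyme that begins glutathione synthesis, differed by 0.05 ± 0.12.

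On the glucuronidation side Ugdh, which makes UDP-glucuronic acid, fell by 0.84 ± 0.17. The nucleotide sugar carrier Slc35d1 rose by 0.79 ± 0.13, and Gusb, which cleaves glucuronides, rose by 0.84 ± 0.13. On the sulfonation side 3 of 8 genes fell and 0 rose: the sulfate transporter Slc26a2 (-1.21 ± 0.17), the PAPS synthase Papss1 (-0.72 ± 0.11) and the sulfatase Arsb (-0.86 ± 0.20). Of 11 other conjugation enzymes Acsm3 (-1.33 ± 0.16) and Inmt (-0.88 ± 0.20) fell, and of 6 exporters Abcb1a fell (-2.44 ± 0.46), with 10.12 and 8.75 in DSS KO and 8.63 in DSS WT colon, against 11.25 in control KO and 11.90 in control WT colon.

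Of 17 regulators 3 rose and 1 fell in DSS colon. The bile acid receptor Nr1h4 rose by 1.16 ± 0.17, Keap1, which holds Nrf2 back, by 0.64 ± 0.13, and Bach1, a repressor at antioxidant elements, by 0.51 ± 0.10. The vitamin D receptor Vdr fell by 0.71 ± 0.12. Nfe2l2, which encodes Nrf2, differed by -0.10 ± 0.14 and Ahr by -0.32 ± 0.15, neither past the threshold.

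In control ileum against control colon 10 of the 57 were higher and 4 lower, beside 5.94% and 3.22% of all genes. The sulfate transporter Slc13a1 had 12.44 in KO and 12.51 in WT ileum, against 5.55 in KO and 5.07 in WT control colon (7.17 ± 0.58, adjusted p = 0.000925), below the lower quartile in control colon. The conjugate exporters Abcc2 (3.67 ± 0.35) and Abcg2 (2.04 ± 0.20) were higher in ileum, and Abcc4 (-0.80 ± 0.13) and Abcc1 (-0.78 ± 0.11) lower. The sulfate transporter Slc26a2 was lower in ileum (-0.94 ± 0.19), as was Acsm3 (-2.67 ± 0.18). Of 17 regulators 5 were higher, namely Nr1h4 (1.97 ± 0.18), Cdx2 (1.47 ± 0.30), Ppara (1.45 ± 0.16), Rxra (1.18 ± 0.16) and Bach1 (0.94 ± 0.11), and 0 lower.

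Between KO and WT arrays over all conditions 0 of the 46 genes passed in limma, with 3 at an unadjusted p under 0.05, and 0.00502% of all genes were called, which is Atg4b alone. The largest differences were 0.54 ± 0.18 for Ugt2b36, 0.50 ± 0.14 for Ugt2b35 and 0.40 ± 0.20 for Gstm6. Outside the dim genes the lowest were -0.41 ± 0.39 for Gstp3, -0.19 ± 0.12 for Sult2b1 and -0.11 ± 0.36 for Sult1c2, and the adjusted p of these 6 genes was 0.989 to 0.992. Ugt2b35 was higher in KO in every pair, by 0.20 in ileum, 0.36 in control colon and 0.74 and 0.93 in DSS colon.

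In DSS colon alone 0 of the 46 genes passed between the 2 KO arrays and the WT array, with 4 at an unadjusted p under 0.05, and 0% of all genes were called. Gstm1 differed by 0.90 ± 0.28, Ugt2b35 by 0.83 ± 0.17, Gstm3 by 0.75 ± 0.27, Gstp3 by -0.99 ± 0.56, Ugt2b5 by -0.34 ± 0.20 and Gstt3 by -0.19 ± 0.16, each with an adjusted p of 1.0. Ugt2b5 lay below the lower quartile on these 3 arrays, so its difference has little weight. The smooth muscle means given above stood in the same order on these arrays as Gstm1, Gstm3 and some of the other genes that fell. The part of smooth muscle was not tested. Leaving out DSS KO replicate 2 gave 4 calls, Gstm1 (1.22 ± 0.23, adjusted p = 0.0118), Gstm3 (1.05 ± 0.23), Sult1c2 (1.09 ± 0.23) and Gstp3 (-1.72 ± 0.25). That fit called 2.7% of all genes, sets 1 KO array against 1 WT array and assumes that they vary like the untreated arrays.

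Nor did the KO difference in DSS colon less that in untreated tissue pass for any gene, with 1 of the 46 at an unadjusted p under 0.05 (Ugt2b35, 0.55 ± 0.22) and 0% of all genes called. The largest were 0.84 ± 0.36 for Gstm1, 0.78 ± 0.69 for Sult1c2 and 0.65 ± 0.35 for Gstm3, and on the lower side -0.97 ± 0.72 for Gstp3, -0.58 ± 0.36 for Gstm6 and -0.57 ± 0.26 for Ugt2b5, which lay below the lower quartile on every colon array. Without DSS KO replicate 2 Gstp3 and Sult1c2 passed here, in a fit that called 1.4% of all genes. The DSS KO replicates differed from each other by 1.45 in Sult1c2, by -1.46 in Gstp3 and by 0.65 in Gstm1 (replicate 1 minus replicate 2).

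In single pairs without a test, KO minus WT in control ileum was over 1 for Ugt2b36 (1.10) and Gstm6 (1.02), followed by Gstt1 at 0.86, which had 9.71 in KO and 8.85 in WT ileum. The lowest was Sult1c2 at -0.48. In control colon the pairs ran from -0.55 for Sult2b1 to 0.42 for Ugt2b36. The medians over the 46 genes were 0.0085 in ileum and 0.015 in control colon.

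**Figure D5:**
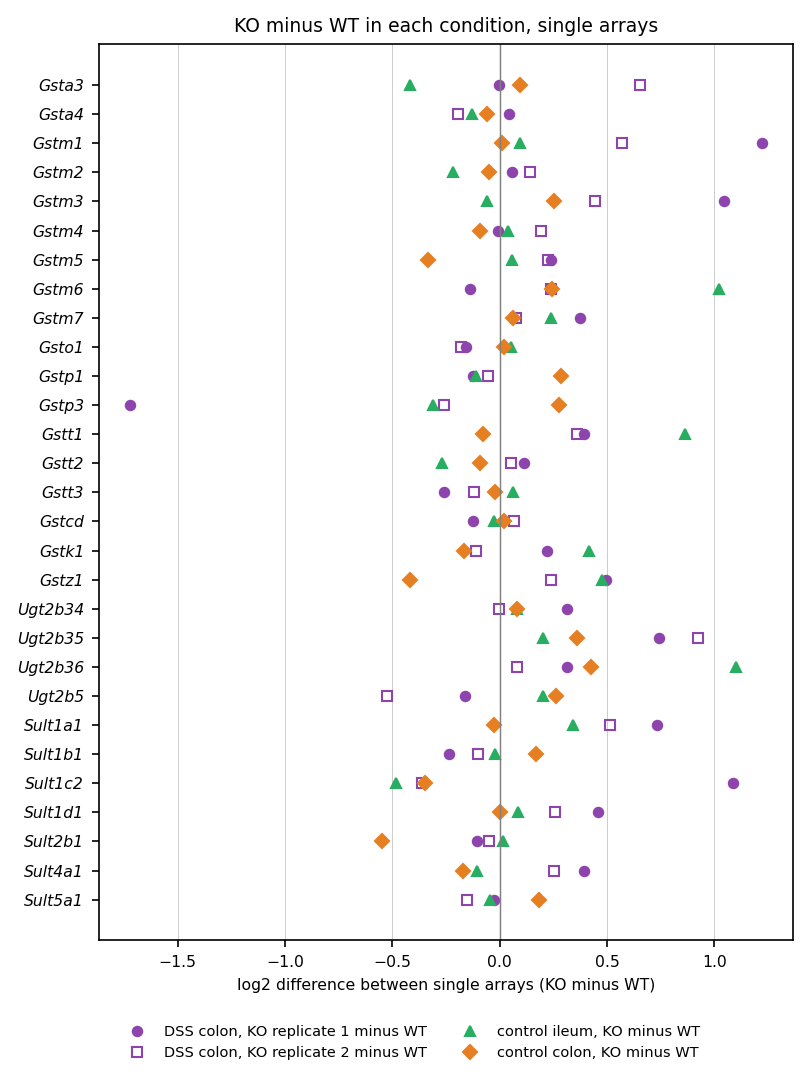
KO minus WT log2 differences between single arrays for the 29 genes above the lower quartile on at least 1 array, with DSS colon in purple (a filled circle for KO replicate 1, an open square for replicate 2), control ileum as green triangles and control colon as orange diamonds. Gstp3 and Sult1c2 separate the KO replicates of DSS colon most, followed by Gsta3 and Gstm1, and Ugt2b35 lies to the right of 0 in every pair.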

How the data were processed

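Total RNA was labelled with biotin by an Affymetrix kit and run on 1 array per sample, per the labels. The authors deposited 1 linear intensity per probe set and array. Their summary and normalization method was not given in the sources used. Had it equalised the arrays, a change common to every gene could not be seen. The values ran from 10.4 to 22236.4 with array medians of 121.4 to 126.45, and log2 was taken here without further normalization.

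Of 35512 probe sets, 21789 carry 1 gene symbol, 1621 several and 12102 none here. For the 999 genes with several probe sets the probe set of highest mean was kept, giving 19938 genes. Of the enzymes, 12 probe sets carry several symbols and were assigned to no gene; 17 symbols, among them all Ugt1a genes, occur only there.

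Models were fitted with limma 3.58.1 in R 4.3.3 (lmFit and eBayes, Benjamini-Hochberg over all genes, threshold 0.05), with Python 3.11.15 and matplotlib 3.10.9 for tables and figures. The first held condition and genotype, the second added a KO effect in DSS colon. All 7 arrays entered each fit, which share 1 error. Values with ± are log2 differences with the SE of the fit. Scripts were tested on simulated data. Alternatives were quantile normalization, median centring, an offset of 50, leaving out dim genes, averaging probe sets, a trended robust prior, colon or control arrays alone, leaving out each array, and centring on epithelial markers, added after seeing the data.

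The genes and lists were chosen with earlier results of these data known. Named with values were the genes past the threshold in each comparison, up to 10 each way, otherwise the 3 largest each way, and the gene with the widest range in each family of 3 or more. Other genes named beside them were chosen after their values were seen. Chromosome order and promoter windows came from RefSeq, GRCm38.p6. No build is given for the array.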

Additional observations from a re-analysis of the deposited data

Results flagged for a closer look

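Gstp3 was lower in KO than in WT in both DSS colon pairs and in the ileum, and higher in KO in control colon. Its KO minus WT difference in DSS colon less that in control colon was -1.27 log2 units, and that in control ileum less control colon was -0.58. Sult2b1 was lower in KO in both DSS colon pairs and in control colon, and higher by 0.01 in the ileum. Its KO minus WT difference in DSS colon less that in ileum was -0.092, and that in ileum less control colon was 0.56. Each was noticed because every pair of 1 group moved opposite to every pair of another. That pattern does not set Gstp3 and Sult2b1 apart, since other genes of the 46 showed it too. Gstz1, Gstm5 and Sult4a1, for example, were higher in KO in both DSS colon pairs and lower in KO in control colon. For Gstz1 KO minus WT was 0.49 and 0.24 in DSS colon and -0.42 in control colon. None of the differences between groups given here was tested, since ileum and control colon hold 1 pair each. No group held 4 or more arrays, so no single array could be checked against its own group.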

How the results depend on the processing

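No called gene changed direction under any alternative. Leaving out 1 array at a time gave 2 to 14 calls for DSS colon (13 with all arrays), 5 to 14 for ileum (12 with all), 0 to 4 for KO in DSS colon and 0 to 2 for the KO difference between DSS colon and controls (0 with all for both), and 0 each time for KO over all conditions. The 14 calls for DSS colon and for ileum came without DSS KO replicate 1, in fits that called 17.8% and 12.1% of all genes. Shares for the fits with the fewest calls are given above. Gstm7 and Sult1a1 passed in all 15 DSS alternatives, of which colon arrays alone and leaving out either ileum array are the same fit. Gstm2, Gstm7, Sult1a1 and Sult2b1 passed in all 15 for ileum, and Ugt2b36 in the 14 in which it was tested. For ileum, leaving out a DSS array alters the error of the fit and not the difference. The other settings gave 11 to 16 calls for DSS colon and 11 to 13 for ileum, and 0 for each genotype comparison. Where every gene was tested, they called 8.11% to 11.7% of all genes for DSS colon and 8.37% to 13.0% for ileum. With dim genes left out Ugt2b36 and Ugt2b5 were not tested. KO in DSS colon could not be fitted without the DSS WT array. No paired analysis was possible because the labels give the groups no shared replicate numbers. Signal over background limits the 17 dim genes, the 5 colon values of Ugt2b36 and Ugt2b5, Gstm6 in WT ileum and Ugt2b35 in DSS WT colon.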

Other observations

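Probe sets shared by several genes of these families were read as sets and assigned to no one gene. The set shared by 8 Ugt1a genes, which glucuronidate bilirubin and phenols, had log2 intensities of 9.42 and 9.05 in DSS KO and 8.91 in DSS WT colon, against 9.37 in control KO and 9.40 in control WT colon. In ileum it had 9.38 in KO and 9.34 in WT. One DSS array lay above both control colon values and the other DSS arrays below them.

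The 4 sets shared by Gsta1, Gsta2 and 2 predicted genes, alpha-class transferases, had ileum means 1.21 to 1.54 log2 units above the control colon means, and DSS colon means 0.04 to 0.08 above them. The brightest of the 4 had 9.72 in KO and 10.24 in WT ileum, against 8.33 in KO and 8.55 in WT control colon, without overlap. The sets shared by Gstp1 and Gstp2 differed by 0.05 and 0.06 between the means of DSS and control colon. These shared sets were not tested.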
